A study of Mus musculus with 4 samples.

Results

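The transcripts described here are the annotated noncoding RNAs of the mouse RefSeq collection, read on expression arrays of brown adipose tissue (BAT). A probe was a member if it was no control spot and its target accession began with NR_, the RefSeq prefix for noncoding transcripts. Probes whose symbol began with Snhg, and those of Gas5, were left out, and genes under any other symbol stayed in. Of 771 NR_ probes 12 were left out, 9 with a Snhg symbol and 3 of the Gas5 accession. Thus 759 of the 55681 distinct probes of the array remained. They stand for 643 accessions. A RefSeq gene table paired 692 of the probes with the symbols of 583 genes, and 67 probes of 51 accessions stayed without a symbol. The 26392 probes whose accession begins with NM_, the prefix for mRNAs, served as the comparison.

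All 4 mice were male transgenic (Tg) animals carrying maP2-Fv2E-PERK, sampled at 8 weeks of age. The transgene fuses the kinase domain of PERK, which phosphorylates eIF2α and so starts the integrated stress response (ISR), to a domain that the ligand AP20187 (AP) dimerizes. It is driven by the aP2 (Fabp4) promoter, which is active in adipocytes and also in monocytes and macrophages. Tg mice received 1 ng/g AP (2 mice, the AP group) or the solvent (2 mice, the vehicle group) into the peritoneum, and BAT was taken 12 h later. Control animals carried the transgene too, and no mice without it were arrayed. RNA of each mouse was labeled with Cy3 and read on its own Agilent array, and nothing in the labels says whether the mice were littermates. Signals are given as log2 of the processed intensity minus the 75th percentile of the array, so 0 is that percentile, and a log2 difference is AP minus vehicle. Differences were tested with limma across all 24972 probes that were well above background (the scanner's detection call) throughout 1 or both groups, and p values measure only the spread between these 4 mice.

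Between 46.4% and 49.0% of spots on each array were well above background, with 0 saturated spots, on 1 slide and in 1 scan. Vehicle arrays lay in row 1 of the slide and AP arrays in rows 3 and 4, so position and treatment cannot be told apart. The brown adipocyte marker Ucp1 read 10.41 and 9.66 with the vehicle and 9.66 and 10.25 in the AP group. All 8 brown adipocyte markers were tested, and some varied widely between mice of a group. Elovl3 read 6.08 and -1.07 with the vehicle and 3.52 and 5.76 with AP, and Dio2 0.49 and 1.53 against -1.78 and 3.33. Adipoq was lower in both AP-treated mice, at a log2 difference of -0.30, and Plin1 higher in both, at 0.33. Of 5 ISR target genes 4 were higher in both AP-treated mice than in both vehicle-treated mice, among them Trib3 with a log2 difference of 4.57. Skeletal muscle markers differed between mice rather than groups: the sum of 6 of them, in multiples of the 75th percentile, was 30.3 and 539 with the vehicle and 361 and 189 with AP. The sum of 4 macrophage markers was 28.8 and 33.0 with the vehicle and 19.6 and 22.0 with AP, with Cd163 not detected, and that of 5 white adipose markers was 47.1 and 54.5 against 33.5 and 37.6, with Hoxc9 not detected. Both sums were thus lower in the AP group, but single markers did not all separate the groups. All 3 tested macrophage markers were lower with AP, but only Itgam had groups apart, at a log2 difference of -0.88. Csf1r and Adgre1 overlapped. Of 4 tested white adipose markers 3 were lower with AP, and Agt was higher, at 0.75 with overlapping groups. Retn, the brightest of them, and Lep had groups apart, at -0.38 and -1.38, and Nnat overlapped. The part of these markers in the results below was not tested. In bulk tissue, fewer cells of a type and less RNA per cell cannot be told apart.

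Noncoding RefSeq transcripts are a mixed class. Long noncoding RNAs (lncRNAs) act in the nucleus as scaffolds or regulators of chromatin, or serve as hosts whose introns are cut into small RNAs. Transcribed pseudogenes are copies of coding genes that no longer encode the full protein, and small structural RNAs build the spliceosome, the ribosome-processing machinery and telomerase. Many spliced lncRNAs and pseudogene transcripts carry short reading frames that end early, and nonsense-mediated decay degrades such RNAs only when ribosomes read them. Phosphorylation of eIF2α lowers translation initiation, and the snoRNA host genes are textbook examples of transcripts that accumulate when translation is blocked. The label of these arrays is primed at poly(A) tails, which most small structural RNAs lack, so their signals are uncertain.

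Promoters of 6 members named in the results below are shown, each from 250 bases before the annotated start to 50 bases after it. They are written 5′ to 3′ on the gene's own strand, from RefSeq on GRCm38.p6. The first is a lncRNA beside Rnf40 that was higher with AP and was picked after its promoter and values had been seen. The next 3 are hosts of snoRNAs, and the last 2 come from the imprinted cluster on chromosome 12. Capitals mark matches on either strand to TGATGNAA (the C/EBP-ATF composite element that ATF4 uses), TGACGTCA (the cAMP response element) and TATAAA (the TATA box).
1700120K04Rik, chr7:127604396-127604695, minus strand: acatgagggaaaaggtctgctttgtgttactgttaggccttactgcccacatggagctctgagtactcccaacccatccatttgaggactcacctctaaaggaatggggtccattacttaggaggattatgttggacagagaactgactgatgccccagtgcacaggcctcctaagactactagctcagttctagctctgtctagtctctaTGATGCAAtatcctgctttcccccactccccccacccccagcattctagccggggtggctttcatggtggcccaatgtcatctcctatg
2410006H16Rik, chr11:62602627-62602926, plus strand: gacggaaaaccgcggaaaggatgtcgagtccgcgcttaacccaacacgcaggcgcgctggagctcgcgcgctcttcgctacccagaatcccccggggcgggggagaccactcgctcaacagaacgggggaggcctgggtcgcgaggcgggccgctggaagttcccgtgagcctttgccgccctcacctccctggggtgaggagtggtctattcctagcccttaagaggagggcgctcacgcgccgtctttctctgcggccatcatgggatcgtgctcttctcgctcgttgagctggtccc
1110038B12Rik, chr17:34952419-34952718, minus strand: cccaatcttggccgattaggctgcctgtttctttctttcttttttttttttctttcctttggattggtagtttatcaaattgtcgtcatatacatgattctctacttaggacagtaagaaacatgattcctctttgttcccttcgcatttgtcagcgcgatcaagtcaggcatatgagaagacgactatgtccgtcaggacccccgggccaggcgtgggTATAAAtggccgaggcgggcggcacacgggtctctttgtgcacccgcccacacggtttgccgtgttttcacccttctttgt
Dancr, chr5:74092810-74093109, plus strand: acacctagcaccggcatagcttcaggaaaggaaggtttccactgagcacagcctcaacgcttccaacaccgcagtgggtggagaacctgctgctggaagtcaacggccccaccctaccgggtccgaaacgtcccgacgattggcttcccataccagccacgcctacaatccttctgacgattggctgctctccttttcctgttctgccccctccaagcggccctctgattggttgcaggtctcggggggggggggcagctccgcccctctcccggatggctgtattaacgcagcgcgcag
Meg3, chr12:109540746-109541045, plus strand: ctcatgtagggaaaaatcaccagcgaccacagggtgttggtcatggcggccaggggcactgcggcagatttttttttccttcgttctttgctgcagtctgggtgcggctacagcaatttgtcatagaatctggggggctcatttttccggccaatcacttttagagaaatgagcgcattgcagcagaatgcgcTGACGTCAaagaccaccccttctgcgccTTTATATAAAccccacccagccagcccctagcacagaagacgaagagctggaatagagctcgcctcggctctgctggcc
Mirg, chr12:109734731-109735030, plus strand: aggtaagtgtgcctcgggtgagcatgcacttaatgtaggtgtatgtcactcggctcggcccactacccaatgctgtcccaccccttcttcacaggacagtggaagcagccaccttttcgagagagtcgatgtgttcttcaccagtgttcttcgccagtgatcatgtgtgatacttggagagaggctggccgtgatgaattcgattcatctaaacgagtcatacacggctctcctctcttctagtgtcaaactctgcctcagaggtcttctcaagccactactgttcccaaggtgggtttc

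In the table, 119 promoters of 106 tested member genes could be read. TGATGNAA stood in 2 of them (1.68%), those of 1700120K04Rik and Zfp672, against 3.97% of all 32851 promoters and 2.39% of those of tested NM_ genes. TGACGTCA stood in 4 (3.36%), those of 1110020A21Rik, Alg13, Appbp2os and Meg3, against 1.79% of all promoters and 2.86% of those of tested NM_ genes. TATAAA, which was added after the sequences had been seen, stood in 12.6% of member promoters, in 13.6% of all promoters and in 7.86% of those of tested NM_ genes. In the Meg3 promoter TATAAA overlaps its own reverse match, so the capitals there run on as 1 block. A match is a description of these letters and not a site. Of the 10 largest positive differences named below, 6 genes had 7 promoters in the table, and 0 of these 7 held TGATGNAA or TGACGTCA.

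Noncoding transcripts were detected less often than mRNAs. Of the 759 member probes 269 (35.4%) were well above background on all 4 arrays, against 58.7% of NM_ probes, and 408 (53.8%) were so on none, against 31.7% of NM_ probes. On single arrays the share of member probes well above background ran from 38.7% in AP replicate 1 to 41.8% in vehicle replicate 2. Detection varied by kind of transcript. Of 446 lncRNA probes 27.6% were detected on all 4 arrays, of 217 pseudogene probes 41.9%, and of 16 probes for small or structural RNAs 87.5%. The table lists 13 member probes under protein-coding genes, and 46.2% of these were detected on all 4 arrays. The 2 probes of Xist, the RNA that coats the inactive X chromosome of females, were not well above background in any of these male mice.

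In all, 295 member probes were tested, 139 of lncRNAs, 99 of pseudogenes, 14 of small or structural RNAs, 7 under coding genes and 36 without a symbol. At an adjusted p under 0.05 (limma, Benjamini-Hochberg over all 24972 probes), 0 members differed, as did 0% of all probes, and the smallest adjusted p of a member was 0.80. None of the differences below passed this test, and standard errors given beside them are those of the limma fit. Before adjustment, 28 members had a limma p under 0.05, or 9.49% against 6.07% of all probes and 5.62% of NM_ probes. Of these, 17 were higher with AP, as were 3.3% of all probes and 3.41% of NM_ probes, and 11 were lower, as were 2.77% and 2.21%. By the methods' t-test, 24 members were under 0.05 before and 0 after adjustment. With a 2-fold difference as well, 14 members remained, 8 higher and 6 lower, or 4.75% against 2.32% of all probes and 2.24% of NM_ probes. Of all probes 1.3% were higher and 1.02% lower by this rule, and of NM_ probes 1.33% and 0.915%. These shares were not compared by a test, and an exact two-sided permutation test with 2 mice per group cannot go below 0.333. A probe could enter through detection in 1 group alone. With detection on all 4 arrays required, 9 members met the 2-fold rule, 7 higher and 2 lower.

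The groups did not overlap at 139 of the 295 members, or 47.1%, nor at 38.3% of all probes and 36.7% of NM_ probes. AP lay above at 59 members, beside 18% of all probes and 19.9% of NM_ probes, and below at 80, beside 20.4% and 16.8%. The median difference of members was 0.01 on the log2 scale, beside 0.02 for NM_ probes and -0.01 for all probes. Members spread more widely: their median difference regardless of sign was 0.31, and that of NM_ probes was 0.24. Dim probes spread more, and members were dimmer, with a median signal of -0.45 against 0.81. In the brightest of 4 equal signal ranges set by the members, the median difference regardless of sign was still 0.26 for 74 members and 0.20 for 4484 NM_ probes. Those 74 members had a median of -0.16, with AP below at 52.7% against 16.3% of NM_ probes. They include the bright pseudogene probes described below. An unadjusted limma p under 0.05 was reached by 4.05% of them and by 4.82% of NM_ probes. In the other ranges these shares were 13.5% and 9.80% (the dimmest), 4.11% and 5.48% (the second) and 16.2% and 4.64% (the third). In the third range AP lay above at 33.8% of members and 22.4% of NM_ probes. The shares by range were not compared by a test.

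**Figure D1:**
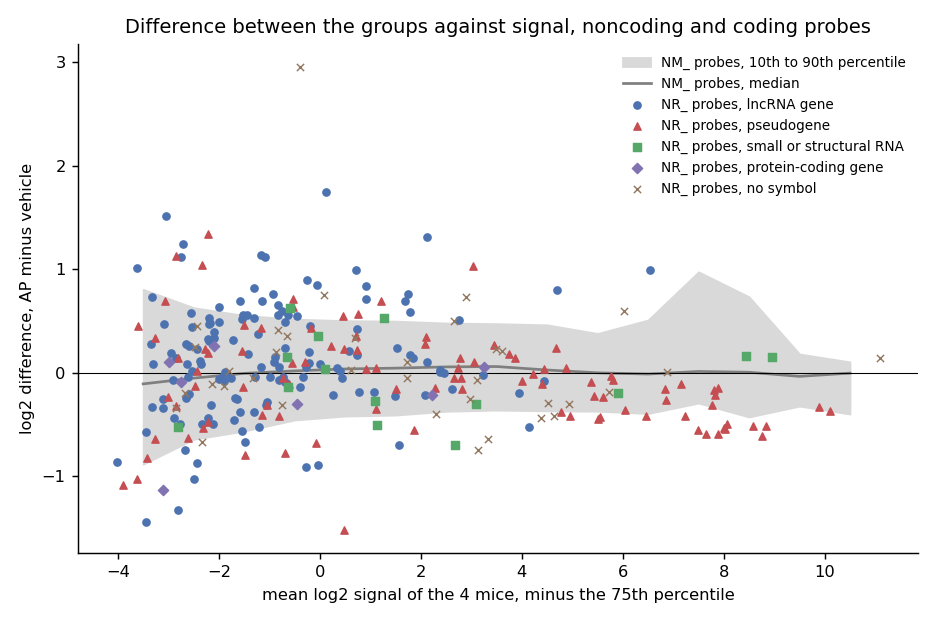
Log2 difference between AP and vehicle of the 295 member probes tested (y axis) against their mean log2 signal, with 0 at the array's 75th percentile (x axis), by kind of transcript; the grey band spans the 10th to 90th percentile of NM_ probes in bins of 1 log2 unit and the line is their median. Pseudogene probes at the bright end sit below 0, and the 3 probes furthest from 0 are NR_033803 at 2.96, Gm10638 at 1.75 and Tubb2a-ps2 at -1.52.

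The lncRNAs and the pseudogenes had medians on opposite sides of 0. Of 139 lncRNA probes 82 were higher with AP and 57 lower, with a median of 0.09. Of 99 pseudogene probes 39 were higher and 60 lower, with a median of -0.11. Groups did not overlap with AP below at 42 pseudogene probes (42.4%) and with AP above at 17 (17.2%). For lncRNAs the counts were 22 (15.8%) and 32 (23.0%). Of all probes 20.4% had AP below and 18% above, and of NM_ probes 16.8% and 19.9%. The 42 include the 17 bright pseudogene probes described below. The other 82 pseudogene probes had AP below at 25 and above at 17, with a median of -0.04. In the authors' log2 table, where the median of all probes was shifted to -0.17, 62 lncRNA probes were higher and 77 lower, with a median of -0.07, and the pseudogene median was -0.28. Without AP replicate 1 the lncRNA median was 0.16, without vehicle replicate 2 it was 0.05, and without AP replicate 2 it was 0.03, with 73 higher and 66 lower. With scaling to the median of each array, where all probes stood at 0.07, the pseudogene median was -0.03. Small or structural RNAs were split, with 7 of 14 higher and a median of -0.05.

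**Figure D2:**
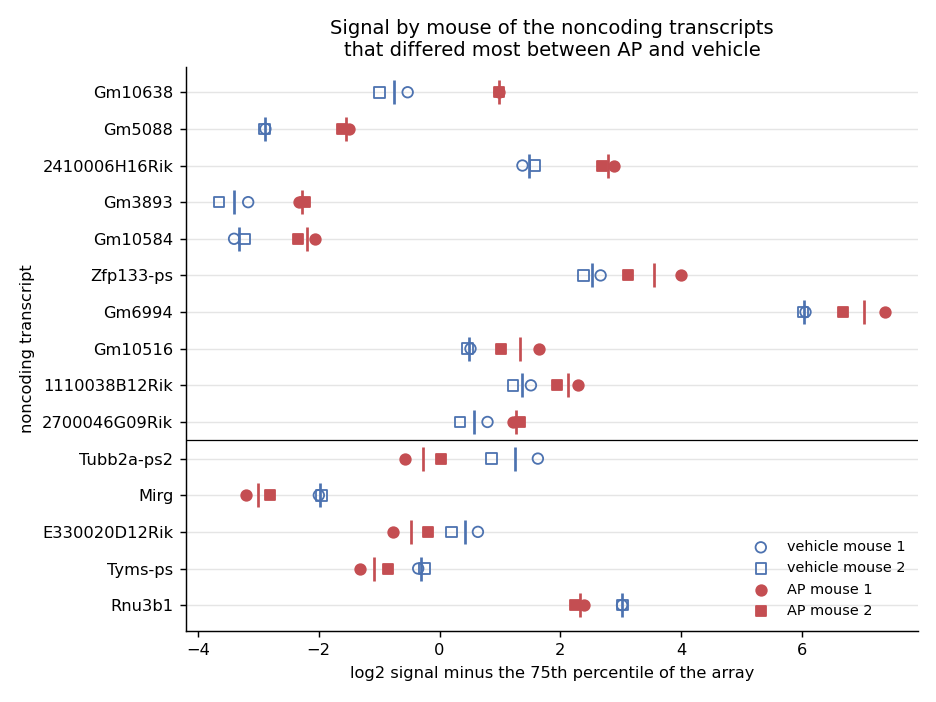
Log2 signal with 0 at the array's 75th percentile (x axis) in each mouse for the 15 named noncoding transcripts with the largest differences, 10 higher with AP above the line and 5 lower below it; open symbols are vehicle-treated and filled symbols AP-treated mice, and vertical ticks are group means. In each row the groups do not overlap, and for Gm10638 the 2 AP-treated mice coincide at 0.99.

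By a rule of detection on all 4 arrays, groups that do not overlap and an unadjusted limma p under 0.05, 10 named members were higher with AP and 5 lower. The rule fixed these directions, and all 15 had an adjusted p of 0.80 (limma). Normexp background correction, quantile normalization, scaling to the median and the authors' log2 values, the settings that could turn a direction here, turned none of the 15. Under normexp the differences of the dim transcripts shrank most.

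Gm10638, a lncRNA that overlaps the gene of the ubiquitin ligase Siah1a, read -0.53 and -0.99 with the vehicle and 0.99 in both AP-treated mice. This is a log2 difference of 1.75 (standard error 0.25), or 3.36-fold. The AP-treated mice were the closest pair of the 4. The probe of Siah1a itself was also higher in both AP-treated mice, with a difference of 0.48 (standard error 0.23), so both transcripts pointed the same way by different amounts.

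Of the hosts of snoRNAs among the members, 3 genes could be tested, and all 3 were higher with AP. Snhg genes had been left out by symbol alone, and whether these 3 also carry a Snhg name was not checked. snoRNAs are small guides of RNA modification that are cut from introns, mostly of genes of the translation machinery. By position in RefSeq, 8 member genes with 9 probes hold a snoRNA gene inside, and the probes tested were 1 each of 2410006H16Rik, 1110038B12Rik and Dancr. Of the other 6 probes, 5 were not well above background on any array, and that of 4833422C13Rik was so on 2 with overlapping groups. The lncRNA 2410006H16Rik, which holds Snord49a, Snord49b and Snord65, read 1.37 and 1.58 with the vehicle and 2.88 and 2.69 with AP. Its log2 difference was 1.31 (standard error 0.22), or 2.48-fold, and its unadjusted p was under 0.05 in each of the 13 limma alternatives and by the methods' t-test. 1110038B12Rik holds Snord52 beside the heat shock gene Hspa1b, and read 1.51 and 1.21 with the vehicle and 2.30 and 1.95 with AP. The difference was 0.76 (standard error 0.25). Dancr, a lncRNA of growth and differentiation with Snora26 inside, read -0.09 and -0.73 with the vehicle and -0.07 and 0.14 with AP, a difference of 0.45 (standard error 0.30). In all 3 hosts both AP-treated mice lay above both vehicle-treated mice, against 18% of all probes. Among the 3, Dancr separated the groups by the smallest margin.

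Other lncRNAs with higher signals were bright or dim. Gm6994, which overlaps Enox1, was the brightest of them at 6.06 and 6.01 with the vehicle and 7.38 and 6.67 with AP. Its difference of 0.99 (standard error 0.31) became 0.64 once AP replicate 1 was left out. Gm10516, which overlaps the corepressor gene Rcor3, read 0.51 and 0.46 against 1.64 and 1.02, a difference of 0.84 that was 0.53 without AP replicate 1. The Rcor3 probe itself differed by 0.02. 2700046G09Rik, overlapping the sphingomyelin synthase gene Sgms1, read 0.79 and 0.34 against 1.21 and 1.34, and its difference was 0.71 (standard error 0.25), with a dimmer probe of the same gene at 0.25. Gm10584, which overlaps the sulfotransferase gene Chst15, was dim in all mice, at -3.40 and -3.23 against -2.06 and -2.34. Its log2 difference was 1.12 (standard error 0.23), and 0.39 under normexp background correction.

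1700120K04Rik, whose promoter holds TGATGCAA, read -3.32 and -4.30 with the vehicle and -1.92 and -2.67 in the AP group. Its difference was 1.52 (standard error 0.46). It was well above background on 3 of the 4 arrays and is therefore not among the 15. Its difference thus rests partly on a signal that was not well above background. It is named here after its promoter and values had been seen, so the match and the difference cannot be read as a link. A second probe of the gene was not well above background on any array. Zfp672, the other tested member gene with TGATGNAA in its promoter, differed by 0.05 in its noncoding probe, with overlapping groups. NR_033803, an accession that the table does not name, had the widest difference of all members tested, 2.96 (standard error 0.98). It read -1.33 and -2.42 with the vehicle and -0.27 and 2.43 with AP, so that AP replicate 2 carried most of it.

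On the lower side, Mirg, a long transcript of the imprinted cluster that holds 10 miRNA genes by position, read -2.00 and -1.95 with the vehicle and -3.21 and -2.80 with AP. Its log2 difference was -1.03 (standard error 0.24). Under normexp background correction it was -0.23. E330020D12Rik, a lncRNA beside Shcbp1l, read 0.64 and 0.20 against -0.76 and -0.19, a difference of -0.89 (standard error 0.31) that was -0.55 under normexp. Rnu3b1, a U3 snoRNA that guides cleavage of the ribosomal RNA precursor, was the most even within groups, at 3.02 and 3.03 with the vehicle and 2.39 and 2.25 with AP. Its difference was -0.70 (standard error 0.20).

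Pseudogenes stood on both sides. Tubb2a-ps2, a copy of the β-tubulin gene Tubb2a, read 1.63 and 0.86 with the vehicle and -0.57 and 0.02 with AP, a log2 difference of -1.52 (standard error 0.38), which is 2.87-fold lower. Tyms-ps, a copy of the thymidylate synthase gene, read -0.35 and -0.25 against -1.31 and -0.84, a difference of -0.78 (standard error 0.25) that was -0.49 under normexp. Among those higher with AP were Gm5088, Gm3893 and Zfp133-ps. Gm5088 read -2.88 and -2.90 with the vehicle and -1.50 and -1.61 with AP, a difference of 1.34 (standard error 0.20), and of 0.52 under normexp. Zfp133-ps, a zinc finger copy, read 2.67 and 2.38 against 3.99 and 3.12. Its difference of 1.03 (standard error 0.36) became 0.59 once AP replicate 1 was left out. Gm3893 was dim, and its 2 tested probes differed by 1.13 (0.39 under normexp) and 0.45.

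Coding genes of the same name were set beside the pseudogenes, since a probe for a near-identical copy can also bind the mRNA. Of 10 pseudogenes matched to a coding gene, all with both probes tested, 8 had the same sign as the coding gene. Of these 8, Pisd-ps1 and Pisd-ps3 share the coding gene Pisd, which itself was at -0.0077. Tubb2a itself read 5.90 and 5.07 with the vehicle and 3.22 and 4.01 with AP, a difference of -1.87 (standard error 0.43) beside -1.52 of its copy, and in both probes AP replicate 1 was lowest. Tyms differed by -0.49 (standard error 0.22) beside -0.78 of Tyms-ps. Smarca5, a chromatin remodeler, and Smarca5-ps were at 0.48 and 0.35. Tdg-ps2 and Pdxk-ps went against their coding genes, at 0.69 against -0.36 of Tdg and with a lower signal against 0.13 of Pdxk. Pdxk-ps was not well above background in either AP-treated mouse, so that only the direction is given. How far the probes bind both transcripts was not tested.

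RNAs named as opposite-strand transcripts of a coding gene were set beside that gene in the same way. Of 10 of these pairs 7 had both members tested, and 2 of the 7 had the same sign. Fbxl12, an F-box gene, read 1.61 and 1.77 with the vehicle and 2.67 and 2.24 with AP, a difference of 0.77 (standard error 0.25). Its antisense RNA Fbxl12os read 2.41 and 2.96 against 2.11 and 3.15, a difference of -0.05. The groups of Fbxl12os overlapped throughout. Rab10os and Stk35os1 were on the side of their coding genes, at 0.53 beside 0.35 of Rab10 and at -0.38 beside -0.17 of Stk35.

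**Figure D3:**
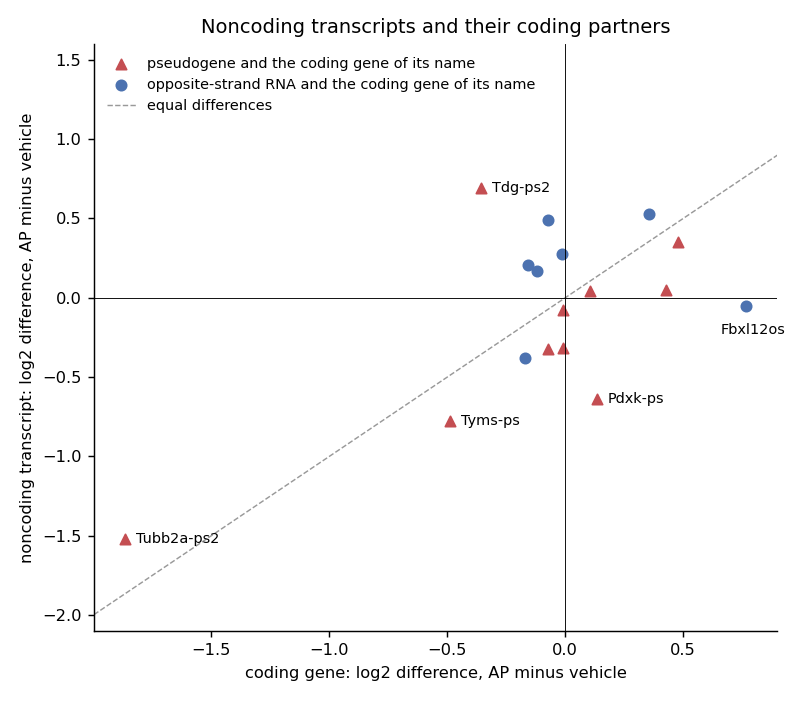
Log2 difference between AP and vehicle of a noncoding transcript (y axis) against that of the coding gene whose name it carries (x axis), for 10 pseudogenes (triangles) and 7 opposite-strand RNAs (circles) with both probes tested; the dashed line marks equal differences. Tubb2a-ps2 and Tyms-ps lie near the line at the lower left, and Fbxl12os lies near 0 while Fbxl12 is at 0.77; Pdxk-ps is drawn at its measured difference, with AP signals not well above background.

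The brightest pseudogene probes were lower with AP than with the vehicle. At a mean signal of 7 or more, a limit chosen after the values were seen, there were 17 pseudogene probes of 9 genes. In 17 of 17 both AP-treated mice lay below both vehicle-treated mice, and the differences ran from -0.61 to -0.11 with a median of -0.50. None had an unadjusted limma p under 0.05, though 10 did under normexp. Of 462 NM_ probes as bright, 16.2% had AP below, and their median difference was 0.0021. Gm8709 read 9.30 and 8.84 with the vehicle and 8.50 and 8.41 with AP, a difference of -0.61 (standard error 0.25). Gm5523, the brightest of them, read 10.51 and 10.06 against 9.91 and 9.92, and Gm6981 read 8.54 and 8.07 against 7.87 and 7.75 by its brightest probe. For Gm6981, 5 tested probes from a signal of -1.48 to 8.06 differed by -0.80 to -0.42. The remaining 82 pseudogene probes had a median of -0.04, with AP below at 25 and above at 17. With vehicle replicate 1 left out, the median of the 17 probes was -0.35, and without vehicle replicate 2 it was -0.68. Under the other scalings 17 of 17 stayed lower with AP. Several of these probes can share 1 coding source, which the files do not name, so they are not independent.

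**Figure D4:**
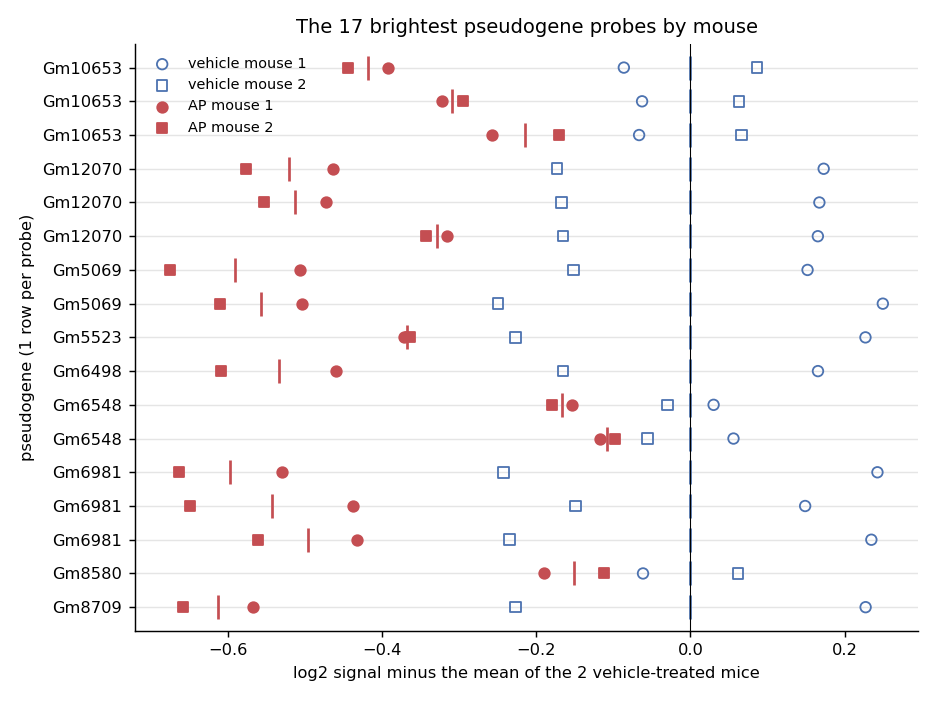
Log2 signal in each mouse minus the mean of the 2 vehicle-treated mice (x axis) for the 17 pseudogene probes with a mean signal of 7 or more, 1 row per probe; open symbols are vehicle-treated and filled symbols AP-treated mice, and ticks are group means. Filled symbols lie left of open ones in every row, and the group differences run from -0.61 to -0.11.

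Among nuclear and X-linked lncRNAs, 10 probes of 5 genes were tested, 5 higher and 5 lower with AP, with a median of 0.01 and 0 under an unadjusted limma p of 0.05. Neat1, the scaffold of paraspeckles, was bright and uneven, at 3.66 and 4.95 with the vehicle and 4.09 and 6.13 with AP. Its groups overlapped, and its log2 difference was 0.80 (standard error 0.82). Malat1, the abundant RNA of nuclear speckles, read -0.37 and -0.26 against -0.75 and -0.16, so its groups overlapped. Norad, which binds Pumilio proteins, had 4 probes between -0.28 and 0.04, and Tug1 had 3 probes between 0.05 and 0.10. Ftx, an X-linked activator of Xist, read -2.70 and -2.38 against -3.30 and -2.83, a difference of -0.52 (standard error 0.27). It was -0.06 under normexp and -0.29 without AP replicate 1. Apart from Ftx and 1 probe of Norad, the groups overlapped at every tested probe of this list.

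Imprinted noncoding RNAs matched by symbol were all on the lower side. This did not hold under normexp, scaling to the median or without any 1 of 3 mice. The list held 7 tested probes of 5 genes, with 0 higher, 7 lower and a median of -0.31. Of 11 listed symbols 6 were found among the members. The 67 member probes without a symbol could not be placed in any list, so imprinted RNAs among them are not counted here. AP lay below vehicle at 4 of the 7, against 20.4% of all probes. Meg3, the maternally expressed RNA that lies upstream of Mirg, read -0.08 and 0.42 with the vehicle and -1.19 and -0.28 with AP. Its difference was -0.91 (standard error 0.40), while a second, dimmer probe of Meg3 differed by -0.26 with overlapping groups. Airn, which silences Igf2r in cis, had probes at -0.75 (-0.18 under normexp) and -0.06, and Kcnq1ot1, which silences the Kcnq1 cluster, was at -0.31 (-0.02 under normexp). Peg13 was even, at 4.03 and 4.06 against 3.84 and 3.86. With Mirg, 1 of the 7 had an unadjusted limma p under 0.05. AP replicate 1 was the lowest mouse for Meg3 and Mirg, and without it 5 of the 7 were lower and the median was -0.19. Without either vehicle-treated mouse 6 of 7 were lower, and without AP replicate 2 the median was -0.92. Under normexp 5 of the 7 were lower, and with scaling to the median of each array 6 of 7.

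Structural and catalytic RNAs showed both directions. Of 11 tested probes 4 were higher and 7 lower, with a median of -0.20, and Rnu3b1 was the 1 probe under an unadjusted limma p of 0.05. Terc, the template RNA of telomerase, read -2.60 and -2.51 with the vehicle and -3.05 and -3.11 with AP, a difference of -0.53 (standard error 0.20) that was -0.04 under normexp. Snord123 was at 0.99 and 1.04 against 1.70 and 1.38, a difference of 0.53 (standard error 0.22). Rpph1, the RNA of RNase P, and Rnu7, which matures histone mRNAs, were higher in both AP-treated mice by 0.35 and 0.62 on the log2 scale. Rmrp differed by 0.04. The spliceosomal Rnu1b6 read 6.03 and 5.98 against 5.24 and 6.38, so that the AP-treated mice lay on both sides of the vehicle group. Ribosomal Rn28s1 and the repeat-derived Rn4.5s were among the brightest members, and both overlapped between groups.

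Hosts of miRNAs gave mixed values. With Mirg and Meg3, 15 member genes held a miRNA gene by position, and 10 of their 21 probes were tested, with AP above at 1 and below at 3, beside 18% and 20.4% of all probes. Dleu2, a host within a tumor suppressor locus, read -0.82 and -1.39 with the vehicle and -0.71 and -0.40 with AP, a difference of 0.56 (standard error 0.29). Mir17hg, the host of a growth-promoting miRNA cluster, read -2.86 and -1.77 against -2.23 and -1.13 and its groups overlapped. Mir22hg was at -0.75 and -1.13 against -2.28 and -0.65, with AP replicate 1 apart from the other 3 mice. Pvt1, a neighbor of Myc, had 2 tested probes at 0.48 and -0.04, and Hoxa11os and Hoxd3os1 of the Hox clusters were lower in both AP-treated mice by values of -0.44 and -0.34, which were 0.01 and -0.01 under normexp. None of the 5 listed adipose lncRNAs was on the array as a member.

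**Figure D5:**
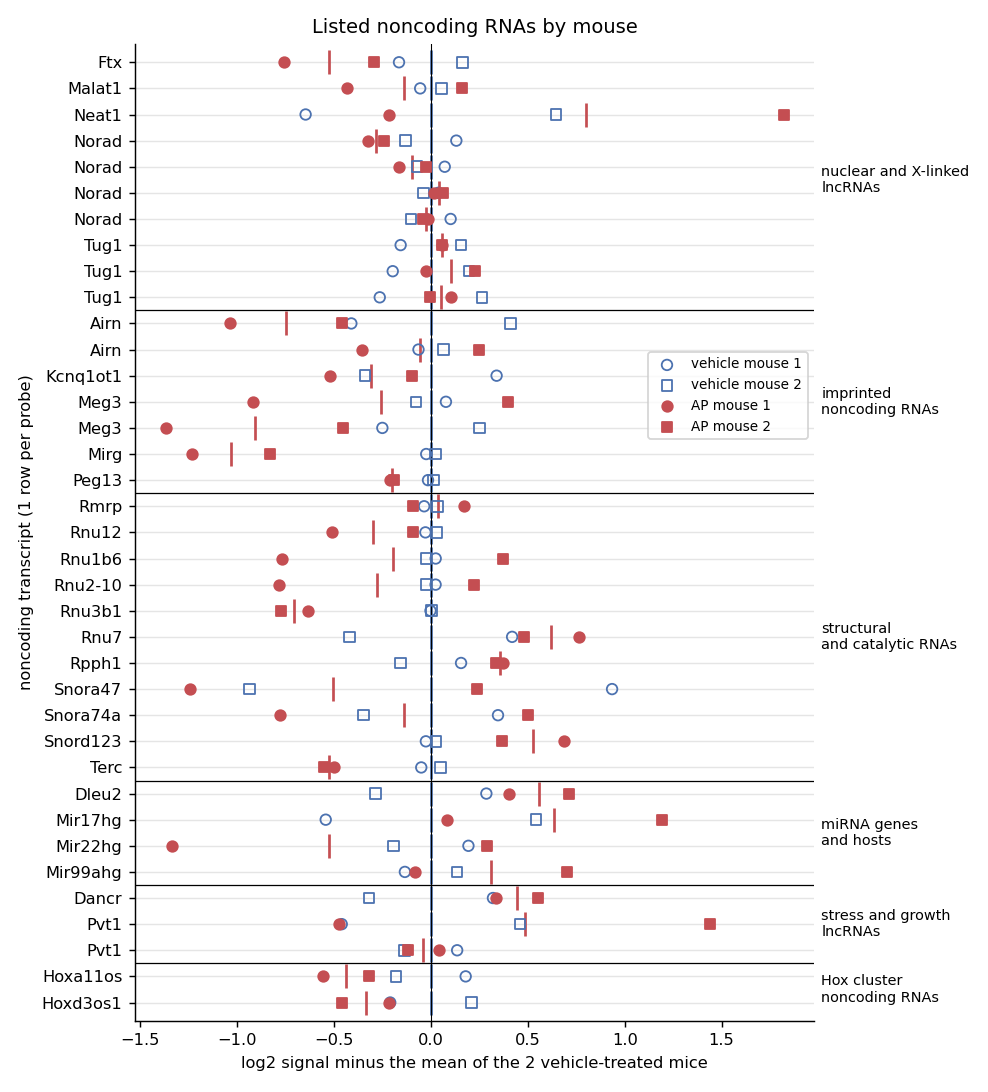
Log2 signal in each mouse minus the mean of the 2 vehicle-treated mice (x axis) for the tested probes of listed noncoding RNAs, 1 row per probe and grouped by list; open symbols are vehicle-treated and filled symbols AP-treated mice, and ticks are group means. Group means of AP lie left of 0 in 7 of 7 rows of imprinted RNAs (5 of 7 under normexp), and AP mouse 2 is farthest to the right for Neat1.

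Some members had probes at both a noncoding and a coding accession of the same gene. There were 8 such genes, and in 4 both probes were well above background on all 4 arrays. For Zfp672 the noncoding probe differed by 0.05 and the coding probe by -0.66, for Tmem80 by -0.22 and 0.43, and for Prmt6, an arginine methyltransferase, by 0.26 and 0.88. For Bmp1, a procollagen protease, the values were -0.31 and -0.27. Of 32 member genes with 2 or more tested probes, 26 had all probes on 1 side of 0, and the median range between probes of a gene was 0.20.

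In 7 member probes, detection itself separated the groups, with both mice of 1 group and neither of the other well above background. Each of them entered the test through its brighter group alone, so its direction follows from the selection. In 6 (2.03% of members tested) the vehicle group was the brighter, as in 1.39% of all probes and 0.835% of NM_ probes, and in 1 (0.339%) the AP group, as in 0.521% and 0.384%. Set against the lowest signal well above background on the AP arrays, the mean of 2900052N01Rik was at least 1.98-fold higher with the vehicle. The same limit was 1.58-fold for Mcpt-ps1, 1.51-fold for Speer5-ps1, 1.28-fold for Gm5039 and 1.08-fold for D5Ertd605e. Single mice lay closer for Mcpt-ps1, with vehicle replicate 2 at -3.57 and AP replicate 1 at -3.68. For Pdxk-ps only the direction is given, since its own undetected AP signals would set the limit. A second probe of Gm3893 was at least 1.33-fold higher with AP. These folds compare the mean of the brighter group with the higher of that lowest signal and the dim probe's own value. Each of the 7 probes had an adjusted p of 0.80 (limma).

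At its widest, 3.74 log2 units, the gap between mice of the same group exceeded the largest group difference of a member, 2.96. At other members, such as Gm5088 and 2410006H16Rik, mice of the same group lay closer together than the groups did. At 39 of the 269 tested members detected on all 4 arrays (14.5%), the 2 mice of 1 group differed by at least 2-fold, and so did 12.7% of NM_ probes. The accession NR_001592, which the table does not name, read -1.26 and 2.48 with the vehicle and 1.15 and 0.12 with AP. Its 4 mice had the order of the muscle marker sum given above, lowest in vehicle replicate 1 and highest in vehicle replicate 2, and the part of muscle in this signal was not tested. Its vehicle gap was the widest gap within a group, followed by that of NR_033803 in the AP group and by that of Gm8801, which read 3.34 and 0.93 with the vehicle.

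Genes that act on noncoding RNA were read in the same mice. Of 12 tested nonsense-mediated decay factors 9 were higher and 3 lower with AP, with a median difference of 0.15, and AP lay above vehicle at 6, against 18% of all probes. Smg6, the endonuclease of that pathway, was at 0.50 and Upf2 at 0.43, while the helicase Upf1 was at -0.14. Of 11 nuclear RNA decay and processing factors 7 were higher, with a median of 0.07. Rbm7, which recruits the nuclear exosome, read 2.76 and 2.46 with the vehicle and 3.31 and 3.12 with AP, a difference of 0.60 (standard error 0.23). The miRNA processor Dgcr8 was lower in both AP-treated mice, at -0.45. Neither list held a probe with an unadjusted limma p under 0.05.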

How the data were processed

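BAT of 4 Tg mice was arrayed, 2 per group. According to the labels 150 ng RNA was labeled, and the dose of AP is 1 ng/g in the labels and 0.05 mg/kg in the study's legend. The authors extracted the scans with Agilent Feature Extraction 10.7.1.1 and deposited, per spot, a background-subtracted intensity on a linear scale that had not been normalized between arrays. A second deposited table holds log2 values, whose differences between arrays matched those of the intensities (r of at least 0.9998 across 24865 probes); its centring is unknown, and the medians of its columns were -0.28, -0.16, -0.44 and -0.29.

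From the intensities, log2 signals minus the 75th percentile of each array were computed, outlier spots were dropped and spots of a probe averaged. A probe entered if well above background in both mice of a group. Differences between groups were fitted in R 4.3.3 with limma 3.58.1 (lmFit, eBayes) over 24972 probes, without a block, since the methods state an unpaired test, and adjusted by Benjamini-Hochberg. The script was tested on simulated data. Symbols, neighbors and promoters came from RefSeq tables of GRCm38.p6; the array design names another build, so no probe coordinates are given. Classes follow the RefSeq gene type. Named members were those of gene lists (detected on at least 2 arrays), up to 10 with the largest differences in each direction (detected on 4 arrays, groups apart, limma p under 0.05, brightest probe of a gene), the 10 highest signals, and genes with NR_ and NM_ probes. Members and lists were chosen with earlier results of these data known. Arrays are 4, which limits precision. Alternatives were normexp with an offset of 50 (on the median spot signal), quantile and median scaling, other filters, a variance trend, the authors' log2 values, the methods' t-test, a replicate block, 1 value per gene and leaving out each mouse.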

Additional observations from a re-analysis of the deposited data

How the results depend on the processing

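The alternatives run were 14, 13 in limma and 1 by the methods' t-test. With all 4 mice kept, no member passed the adjusted threshold, and 24 to 44 members had an unadjusted p under 0.05. As a share of members tested, this was lowest without a filter on dim probes, at 5.80% beside 4.69% of all probes. It was highest with the authors' log2 values, at 13.6% beside 7.46% of all probes. Here 14 members, or 4.75% beside 2.32% of all probes, had an unadjusted limma p under 0.05 and a 2-fold difference. Under the alternatives this rule was not counted over all probes, so the counts that follow describe members alone. The count was 4 under normexp, 25 of 759 tested without a filter on dim probes and 6 by the methods' t-test. With probes detected on all 4 arrays it was 9 (7 higher, 2 lower). With each mouse left out it ran from 11 to 34, the most without AP replicate 2 (21 higher, 13 lower) and the fewest without AP replicate 1 (10 higher, 1 lower). It was 21 without vehicle replicate 1 (16 higher, 5 lower) and without vehicle replicate 2 (9 higher, 12 lower), against 8 higher and 6 lower here. Where 1 array of a group remained, it was taken to vary like the other group. The share of higher among these calls, 57.1% here, was 3 of 4 under normexp, 80.0% under quantile normalization, 78.6% with scaling to the median and 46.2% with the authors' log2 values. The median difference of members, 0.01 here, was 0.094 with scaling to the median, 0.13 without a filter and -0.15 with the authors' log2 values, where the median of all probes was 0.07, 0.09 and -0.17. It ran from -0.066 (without AP replicate 2) to 0.055 (without AP replicate 1), and was 0.03 with 1 value per gene. The cause of these changes was not tested, other than that fewer or more probes enter with another filter. Replicate numbers share only a number: over probes, the correlation of deviations between mice of equal number was -0.13. Fitted with the replicate block, 17 members had p under 0.05 and a 2-fold difference, and with the crossed pairing, chosen after seeing the data, 13, with 0 after adjustment in both. None of the 15 members with the largest differences turned direction under normexp, quantile normalization, scaling to the median or the authors' log2 values, while the other settings could not turn it. A block for slide or scan was not run, since there was 1 of each. With 2 mice per group the adjusted test had little power, for large differences as well as small ones.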
